A study of Gallus gallus with 6 samples.

Results

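The genes described here were 9 immediate early response genes: EGR1, FOS, FOSL2, JUN, JUND, ATF3, IER2, MYC and SRF. They were chosen by gene symbol. A probe set (a group of short probes on the array that reads 1 transcript) was taken where its single annotated symbol was one of these names. Of the 9 genes, 7 had a probe set, 9 probe sets in all, out of 13009 genes with a symbol. JUND and IER2 had none and were not analysed here.

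Immediate early genes are transcribed within minutes of a growth factor, serum or stress signal, without new protein synthesis. Kinase cascades and the actin cytoskeleton act on factors already present in the cell, among them SRF with its ELK or MRTF partners, and these switch on EGR1, FOS, JUN and related genes. Their products are themselves transcription factors, which drive a later wave of genes for growth, adhesion and matrix. In fibroblasts the serum response is the textbook example of this system, and dissociation or handling of cells can also induce it.

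Each of the 6 RNA samples was hybridised to its own Affymetrix Chicken Genome array, read in 1 colour. The 3 PGC arrays held RNA of chicken primordial germ cells, the precursors of eggs and sperm, taken from embryonic blood at day 2.5 and cultured in knockout DMEM with 10 ng/ml human bFGF, with 20 embryos pooled and 1500000 cells per replicate. The 3 CEF arrays held RNA of chicken embryonic fibroblasts from day 6.5 embryos without internal organs and limbs, grown to passage 2 in DMEM with 10% FBS, with 5 embryos pooled and 6000000 cells per replicate. Cell type, embryonic age and medium therefore differed together and cannot be told apart. The labels as read here give a passage and an FBS content for CEF only, so both are unknown for PGC. Each culture was sampled in a single state, so no induction was measured. In bulk RNA, fewer cells expressing a gene and less RNA of it per cell cannot be told apart either.

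The cell type labels were checked on marker genes. All 8 measured germ cell markers were called higher in PGC, and 9 of 10 fibroblast markers were called higher in CEF. The fibroblast marker PDGFRA was not called. Of 10 leukocyte markers, 8 were called higher in CEF, 1 (CYBB) higher in PGC and 1 was not called. Their summed linear level ran from 93.7 to 99.3 on the PGC arrays and was 451, 302 and 770 on CEF replicates 1, 2 and 3. Of 4 thrombocyte markers, 2 were called in CEF and 1 (TUBB1) in PGC, and their sum lay between 37.0 and 39.6 in PGC and between 325 and 400 in CEF. Of 10 endothelial markers, 3 (ERG, CLDN5 and VWF) were called in CEF and 7 were not called, CDH5, KDR and PECAM1 among them. Their sum lay between 64.7 and 68.3 in PGC and between 219 and 363 in CEF. Erythroid markers summed to 101 to 116 in PGC and 67.0 to 89.2 in CEF. Among these 7, 1 (CA2) was called in PGC and 6 were not called, with a median difference (PGC minus CEF) of -0.28. Muscle markers summed to 134 to 139 in PGC and 119 to 154 in CEF. Among these 9, 3 were called in CEF, 1 in PGC and 5 were not called. Neural markers summed to 1011 to 1129 in PGC and 87.2 to 92.1 in CEF. Among the 8 measured, 3 (ELAVL4, STMN2 and NEFM) were called in PGC and 5 were not called, NEFL, TUBB3 and GFAP among them. Epithelial markers summed to 5574 to 5822 in PGC and 159 to 179 in CEF. Among these 6, 3 (EPCAM, CLDN1 and CDH1) were called in PGC, 1 (KRT14) in CEF and 2 were not called. Whether these markers stand for other cells in the cultures was not tested, nor was the part of such cells in the results below. Array medians lay between 2.69 and 2.77 (log2), and 63.0% to 68.2% of probe sets were above background.

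Levels are the deposited log2 values, and differences are PGC minus CEF, so a negative difference means a higher level in CEF. A gene with several probe sets is represented by the brightest. A gene was called where limma's adjusted p was under 0.05 and the difference was at least 2-fold. The background level was 1.68 in PGC and 1.97 in CEF. Where the lower cell type lay under it, the fold is given as "at least". Of all 13009 genes, 14.9% were called higher in CEF and 17.6% higher in PGC.

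Of the 7 measured genes, 5 were called higher in CEF (EGR1, MYC, ATF3, JUN and SRF), none was called higher in PGC, and FOS and FOSL2 were not called. The median difference of the 7 was -1.81, against -0.05 over all genes. In the 5 called genes the 3 CEF arrays lay above the 3 PGC arrays, which their calls already made likely. That ordering was found in 35.5% of all genes, called or not and those under background included. This share is therefore not a like comparison for genes picked by their call. FOSL2 overlapped between the cell types, and FOS lay under background in both, where values have no order.

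**Figure D1:**
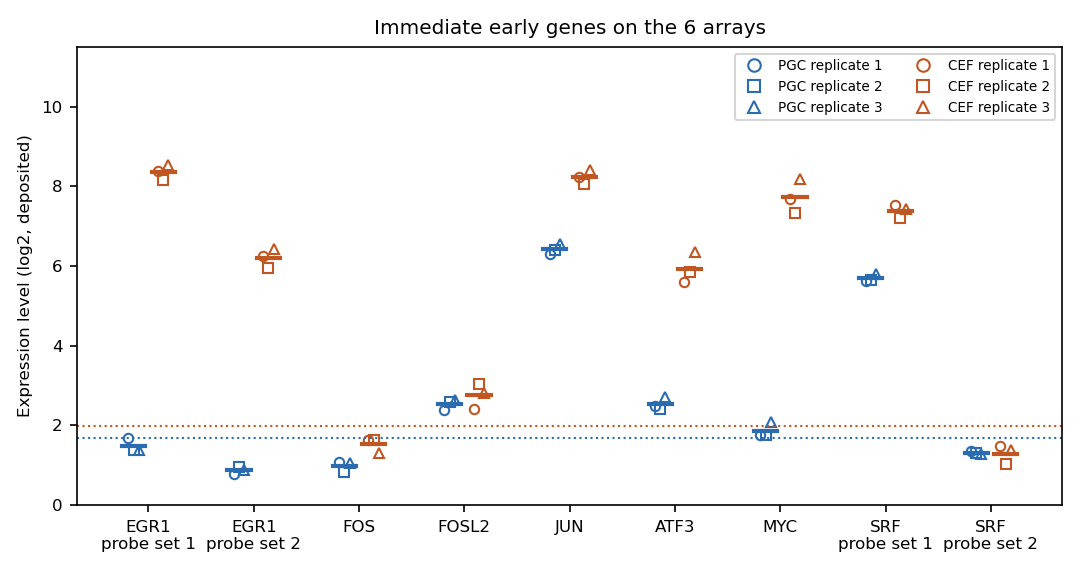
Deposited log2 level (y axis) of each probe set of the 7 genes (x axis) on the 6 arrays, with PGC in blue, CEF in orange, one marker shape per replicate, bars at the means and dotted lines at each cell type's background level. EGR1, MYC and ATF3 are far apart between the cell types. JUN and the brighter SRF probe set are well above background in both. FOS and the other SRF probe set lie below background in both.

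EGR1 is a zinc finger transcription factor that growth factors induce through SRF sites in its promoter. Its level was 1.68, 1.37 and 1.38 on the 3 PGC arrays and 8.40, 8.16 and 8.55 on the 3 CEF arrays (gene ID 373931). The groups did not overlap, and the PGC mean lay under background. The means were 1.47 ± 0.18 in PGC and 8.37 ± 0.19 in CEF (SD, n = 3 each). The difference was -6.89 (SE 0.16, 95% interval -7.25 to -6.54, limma adjusted p = 1.3e-08), which makes the CEF level at least 102-fold higher.

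The second EGR1 probe set read 0.78, 0.95 and 0.88 in PGC and 6.26, 5.96 and 6.42 in CEF. It too separated the groups, with a difference of -5.34 (SE 0.16, limma adjusted p = 4.7e-08), at least 23.1-fold.

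MYC is a basic helix-loop-helix factor that pairs with MAX and drives growth and ribosome production. Its level was 1.76, 1.75 and 2.08 in PGC and 7.68, 7.32 and 8.18 in CEF (gene ID 420332). The PGC arrays were just above background and the CEF arrays far above it, without overlap. The means were 1.86 ± 0.19 and 7.73 ± 0.43 (SD, n = 3 each). The difference was -5.87 (SE 0.22, 95% interval -6.37 to -5.36, limma adjusted p = 1.6e-07), 58.4-fold higher in CEF.

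ATF3, a stress-induced factor that dimerises with JUN and other leucine zipper proteins, read 2.50, 2.41 and 2.70 in PGC and 5.61, 5.85 and 6.34 in CEF (gene ID 421369). The groups did not overlap. The means were 2.54 ± 0.15 and 5.93 ± 0.38 (SD, n = 3 each). The difference was -3.40 (SE 0.20, 95% interval -3.86 to -2.93, limma adjusted p = 2.1e-06), a 10.5-fold higher level in CEF.

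JUN is the DNA-binding partner of FOS proteins in the AP-1 factor. It was well above background in both cell types, at 6.29, 6.41 and 6.56 in PGC and 8.23, 8.06 and 8.41 in CEF (gene ID 424673). Every CEF array lay above every PGC array. The means were 6.42 ± 0.13 and 8.23 ± 0.17 (SD, n = 3 each). The difference was -1.81 (SE 0.12, 95% interval -2.09 to -1.53, limma adjusted p = 4.2e-06), 3.51-fold higher in CEF. After scaling to the bacterial spike-ins it was -0.84 and no longer passed the 2-fold minimum.

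SRF, the serum response factor, binds the serum response element of many early and cytoskeletal genes. Its brighter probe set read 5.62, 5.66 and 5.79 in PGC and 7.54, 7.22 and 7.42 in CEF (gene ID 396103). The groups did not overlap, with means of 5.69 ± 0.09 and 7.39 ± 0.16 (SD, n = 3 each). The difference was -1.71 (SE 0.12, 95% interval -1.99 to -1.43, limma adjusted p = 6.1e-06), 3.26-fold higher in CEF. The other SRF probe set lay under background in both cell types, overlapped between them and differed by 0.03 (SE 0.13, limma adjusted p = 0.88). The SRF call therefore rests on 1 probe set. It was also lost after spike-in scaling, at -0.73.

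FOS, the founding immediate early gene, was 1.09, 0.82 and 1.05 in PGC and 1.64, 1.63 and 1.31 in CEF (gene ID 396512). All 6 values lay under background, so no order is read from them and no fold is given. The fitted difference was -0.54 (SE 0.13, 95% interval -0.84 to -0.24, limma adjusted p = 0.0085), under the 2-fold minimum, and 0.43 after spike-in scaling. The background level itself was lower in PGC, at 1.68 against 1.97.

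FOSL2, another FOS family partner of JUN, read 2.39, 2.59 and 2.63 in PGC and 2.40, 3.04 and 2.82 in CEF (gene ID 421416). The groups overlapped. The difference was -0.22 (SE 0.18, 95% interval -0.64 to 0.20, limma adjusted p = 0.34), and 0.75 after spike-in scaling. The interval does not show equal levels.

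**Figure D2:**
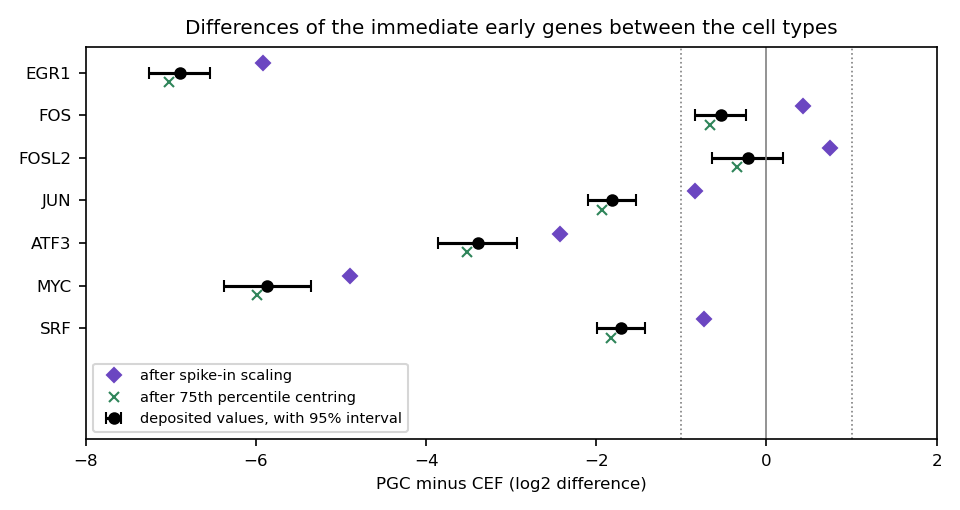
PGC minus CEF difference (x axis, log2) of the 7 genes (y axis), with black points and 95% intervals for the deposited values, crosses after centring on the 75th percentile and diamonds after spike-in scaling. Dotted lines mark the 2-fold minimum. Spike-in scaling moves every gene to the right, which takes JUN and SRF inside the 2-fold lines and FOS and FOSL2 across zero.

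The replicates of CEF differed in the same order for several of these genes. CEF replicate 3 was the highest for EGR1, MYC, ATF3 and JUN, and CEF replicate 2 the lowest for EGR1, MYC, JUN and SRF. Averaged over the 5 called genes, CEF replicates 1, 2 and 3 deviated from their mean by -0.04, -0.21 and 0.25. Among the 1933 genes called higher in CEF, replicate 3 was the highest for 37.5% and replicate 2 the lowest for 40.4%. The summed leukocyte, endothelial and neural markers were also highest on CEF replicate 3 and lowest on CEF replicate 2. The neural sums were close together, at 91.3, 87.2 and 92.1 on CEF replicates 1, 2 and 3. Fibroblast markers ran the other way, with sums of 17651, 19581 and 15453 on CEF replicates 1, 2 and 3. So did thrombocyte markers at 382, 400 and 325 and erythroid markers at 71.2, 89.2 and 67.0. Muscle markers (119, 143 and 154), epithelial markers (159, 179 and 170) and germ cell markers (44.9, 61.6 and 47.0) were lowest on CEF replicate 1. Whether these sums follow the cells present was not tested, nor was the part of such cells in the result. Without CEF replicate 3 the MYC difference was -5.64 and the ATF3 difference -3.19, and both stayed called.

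By centred profile over the 6 arrays, the genes nearest to EGR1 were TWIST1, PRKCDBP and TIMP3, at root mean square distances of 0.134, 0.150 and 0.158 (log2). TWIST1 is a mesenchymal transcription factor and is also among the fibroblast markers above, and TIMP3 is an inhibitor of matrix proteases. The genes nearest to MYC were ERG, an ETS family factor that is also among the endothelial markers above, TGFBI, a matrix protein induced by TGF-beta, and ARPC1B, a subunit of the ARP2/3 actin nucleator. Their distances were 0.175, 0.216 and 0.221. These are descriptions over 6 arrays that share the same 2 cell types.

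Among 33 other measured immediate early genes, 23 were called higher in CEF, 2 higher in PGC and 8 were not called, with a median difference of -1.76. The shares called in CEF and PGC were 69.7% and 6.1%, beside 14.9% and 17.6% of all genes. This list and those below were chosen with earlier results of these data known, so their shares are descriptions only. After spike-in scaling the median of the 33 genes was -0.78, against 0.93 over all genes. Some of the 23 calls in CEF were then lost, and a call in PGC was added. Of all genes, 7.13% were called in CEF and 45.6% in PGC under that scaling. In the deposited values, the differences furthest towards CEF were those of CCN2 and CYR61, matricellular proteins induced by serum and by YAP. They were -8.53 (SE 0.10) and -8.22 (SE 0.18). The level of CCN2 was 3.14 ± 0.05 in PGC and 11.66 ± 0.11 in CEF (SD, n = 3 each), the latter brighter than the cre spike-in at 11.33. PTGS2, the inducible cyclooxygenase, differed by -5.56, though only 1 of its 2 probe sets was called. DUSP5, a nuclear ERK phosphatase, differed by -4.75.

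The 2 genes called higher in PGC were NR4A2, an orphan nuclear receptor, and DUSP6, a cytoplasmic ERK phosphatase induced by FGF signalling. NR4A2 differed by 1.50 (SE 0.18), and 1 of its 2 probe sets was called. DUSP6 differed by 1.12 (SE 0.17), and was no longer called without CEF replicate 2, at 0.91, or with 75th percentile centring, at 0.99. Of the bright genes not called, ID1 differed by -0.60 and ZFP36L2, a decay factor for AU-rich mRNA, by -0.02. Both were above zero after spike-in scaling, at 0.37 and 0.95.

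**Figure D3:**
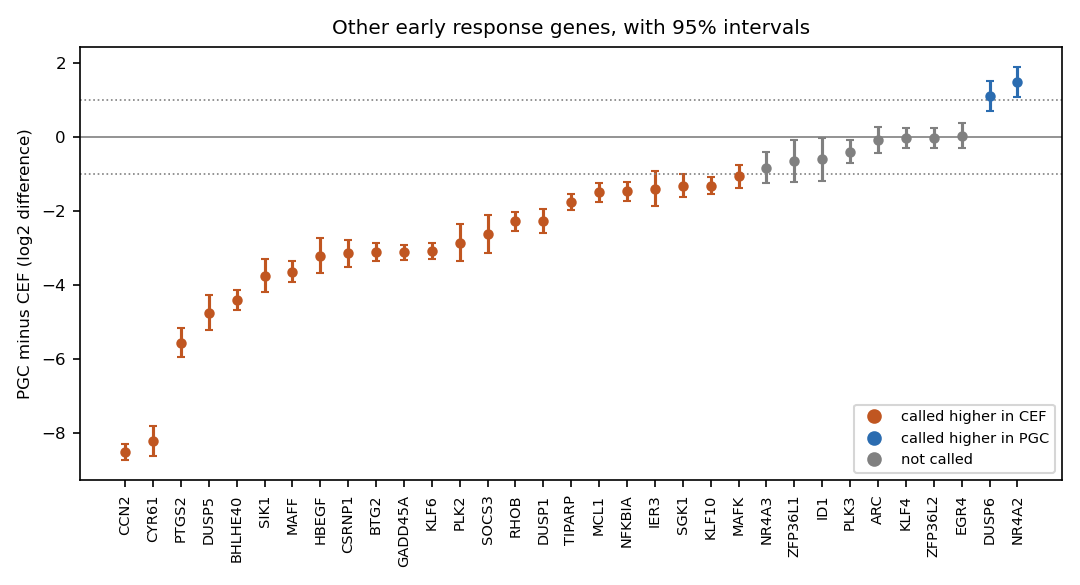
PGC minus CEF difference (y axis, log2) with its 95% interval for the 33 other measured immediate early genes (x axis), ordered by difference, with dotted lines at 2-fold. Most genes lie below the lower line, and NR4A2 and DUSP6 lie above the upper one.

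Of 29 measured genes that relay signals to SRF and CREB, 7 were called higher in CEF, 1 in PGC and 21 were not called. The shares called in CEF and PGC were 24.1% and 3.4%, beside 14.9% and 17.6% of all genes. Their median difference was -0.16, and 0.05 with the mean of all probe sets of each gene. Several of the genes not called by their brightest probe set had another probe set called, mostly in PGC. CREM, a cyclic AMP response factor, differed by -3.16, and ELK3, an ETS partner of SRF, by -3.13. CREM had 2 of its 3 probe sets called. MYOCD, the muscle coactivator of SRF, had a CEF level at least 4.37-fold higher, with 1 of its 2 probe sets called. MAPK8, the JUN kinase JNK1, was higher in PGC by 2.55 (SE 0.20). The stress kinase MAPK14 differed by 0.29 and was not called. The small GTPase RHOA was at 10.85 ± 0.04 in PGC and 10.86 ± 0.07 in CEF (SD, n = 3 each), a difference of -0.01 that was 0.96 after spike-in scaling. Under that scaling 11 of the 29 genes were called in PGC and 3 in CEF, against 45.6% and 7.13% of all genes.

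There were 19 measured leucine zipper genes that can pair with FOS or JUN, or are related to those that do. Among these, 4 were called higher in CEF, 2 in PGC and 13 were not called. The shares called in CEF and PGC were 21.1% and 10.5%, beside 14.9% and 17.6% of all genes. CEBPB, a factor of inflammation and fat cell formation, differed by -3.07 (SE 0.10). CREB5 had a CEF level at least 2.66-fold higher, with a wide spread between its CEF replicates, at 1.98, 3.36 and 3.94, and 1 of its 4 probe sets was called. NFE2L1 and BACH1 differed by -1.17 and -1.04, with 1 of 4 and 1 of 5 probe sets called. The highest differences among their probe sets were 0.80 and 0.58, not called. BACH1 was not called without CEF replicate 2 or without CEF replicate 3, at -0.91 and -0.94. MAFG, a small MAF protein, had a PGC level at least 4.08-fold higher. BATF3 was 3.98-fold higher in PGC. ATF4 and XBP1, factors of the unfolded protein response, differed by -0.67 and -0.53, were not called, and were above zero after spike-in scaling, at 0.30 and 0.44.

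MYCN, the paralogue of MYC, differed in the opposite direction. It read 10.95, 10.85 and 10.85 in PGC and 6.54, 6.25 and 7.17 in CEF. The PGC arrays were all above the CEF arrays. The difference was 4.23 (SE 0.20, limma adjusted p = 5.2e-07), 18.8-fold higher in PGC, and the second MYCN probe set was called in the same direction at 4.51. Levels of MYC and MYCN come from different probes and are not compared with each other.

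Of the 15 measured genes of the MYC and MAX network, 5 were called higher in PGC and 2 in CEF. These shares were 33.3% and 13.3%, beside 17.6% and 14.9% of all genes. The CEF count was 4 with 75th percentile centring or quantile normalization. MXD4 and MXD1, repressors that compete with MYC for MAX, were higher in CEF, at -3.29 and -1.61. MXD1 had 1 of 3 probe sets called. MXD3, of the same family, was higher in PGC at 2.15, as were MLXIP, a glucose-responsive partner of MLX, at 1.68 and MGA, a MAX partner, at 1.34. MGA rests on 1 of 8 probe sets. MLX and MYCBP differed by -0.10 and 0.20 and were not called. After spike-in scaling MLX stood at 0.88.

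**Figure D4:**
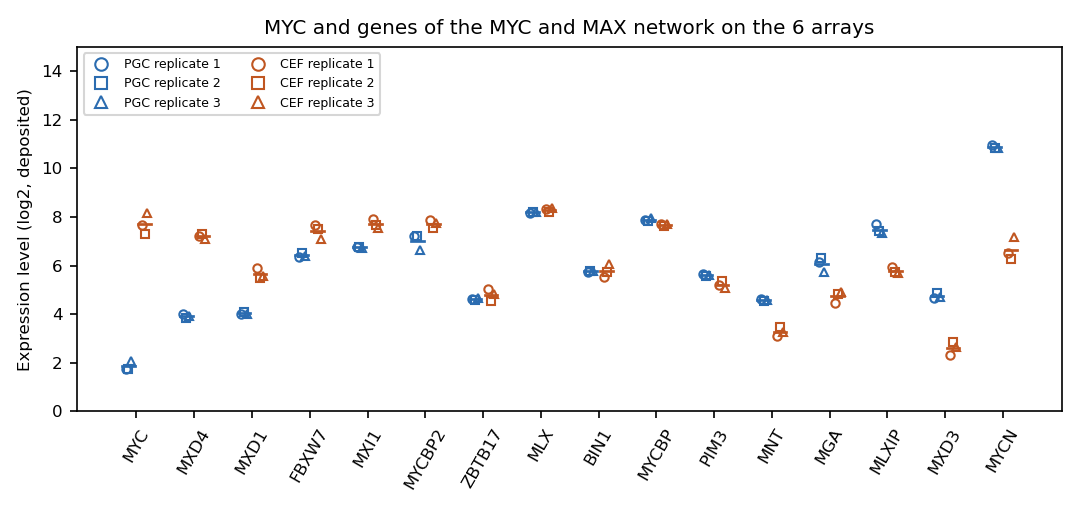
Deposited log2 level (y axis) of MYC and the 15 measured network genes (x axis) on the 6 arrays, with PGC in blue, CEF in orange, one marker shape per replicate and bars at the means. MYC on the left is high in CEF and MYCN on the right is high in PGC.

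Of 18 measured genes known as targets of MYC, 3 were called higher in PGC, none in CEF and 15 were not called. The share called in PGC was 16.7%, near the 17.6% of all genes, and 14.9% of all genes were called in CEF. Several of the genes not called by their brightest probe set had another probe set called in PGC, and none had one called in CEF. The median difference of the 18 genes was 0.53. TERT, the catalytic subunit of telomerase, was at least 2.52-fold higher in PGC. EIF4E, the cap-binding translation factor, differed by 1.26, with 1 of 3 probe sets called. GNL3, a nucleolar GTPase of stem cells, differed by 1.01 and fell under the 2-fold minimum when PGC replicate 1, PGC replicate 2 or CEF replicate 2 was left out, at 0.95, 0.98 and 0.91. It did so too with 75th percentile centring (0.88) and quantile normalization (0.97). The glycolytic genes ENO1 and LDHA were not called, at 0.19 and 0.06. After spike-in scaling 15 of the 18 genes were called higher in PGC, where 45.6% of all genes were so called and the median of all genes was 0.93.

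Of 18 measured genes known as targets of AP-1, 12 were called in CEF and none in PGC, with a median of -2.27. The share called in CEF was 66.7%, beside 14.9% of all genes, and 17.6% of all genes were called in PGC. CD44, the hyaluronan receptor, differed by -5.63, the haem oxygenase HMOX1 by -5.18 and osteopontin (SPP1) by -4.86. IL6 had a CEF level at least 27.1-fold higher, with 1 of its 3 probe sets called. HMOX1 and SPP1 followed the replicate order of MYC, with CEF replicate 3 highest and replicate 2 lowest. CCN2 and CYR61 ran the other way, with CEF replicate 2 highest and replicate 3 lowest. Among the 1933 genes called higher in CEF, replicate 3 was the highest for 37.5% and replicate 2 the lowest for 40.4%. CCND1, cyclin D1, was not called at 0.23, and the chemokine gene IL8L1 was under background in both cell types.

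Of 10 measured EGR1 targets and repressors, 7 were called in CEF and none in PGC. Beside these 70%, 14.9% of all genes were called in CEF and 17.6% in PGC. FGF2 differed by -4.71. THBS1, thrombospondin 1, differed by -4.31 (SE 0.56), with CEF replicates at 5.21, 7.55 and 7.53, the first well below the others, and all 3 of its probe sets were called. F3, tissue factor, differed by -4.08. NAB1, a corepressor of EGR1, and PPARG differed by -0.22 and -0.51, were not called, and turned to 0.75 and 0.46 after spike-in scaling.

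Of 21 measured cytoskeletal targets of SRF and MRTF, 15 were called in CEF and none in PGC, with a median of -3.61. The share called in CEF was 71.4%, beside 14.9% of all genes, and 17.6% of all genes were called in PGC. CALD1, TAGLN and ACTG2, proteins of the contractile apparatus, differed by -8.71, -8.20 and -8.03. FHL2, a LIM-domain cofactor, was at least 77.7-fold higher in CEF. The cytoplasmic actins ACTB and ACTG1 were not called, at -0.43 and -0.54. ACTB had 1 of 4 probe sets called in CEF, with differences from -1.24 to 0.48. The 2 probe sets of ACTG1 ran from -0.54 to 0.54. By their brightest probe sets, both actins were brighter than the cre spike-in in both cell types and stood at 0.54 and 0.44 after spike-in scaling.

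Of 19 measured genes of the fibroblast serum response, 13 were called in CEF and none in PGC. Beside these 68.4%, 14.9% of all genes were called in CEF and 17.6% in PGC. LOXL2, a collagen cross-linking enzyme, differed by -6.24. INSIG1, a regulator of sterol synthesis, missed the 2-fold minimum at -0.98, with 1 of its 3 probe sets called at -2.69. It was called in CEF with 75th percentile centring (-1.10) and quantile normalization (-1.004), and without CEF replicate 3 (-1.10). These target lists share genes. Also in another list are 8 of the 18 AP-1 targets, 5 of the 10 EGR1 targets and 9 of the 19 serum response genes. Their counts are therefore not separate observations. After spike-in scaling the AP-1, EGR1, SRF and serum response lists had medians of -1.29, -1.89, -2.64 and -1.29, against 0.93 over all genes.

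Of 13 measured stress response genes, 4 were called higher in CEF and 3 in PGC. These shares were 30.8% and 23.1%, beside 14.9% and 17.6% of all genes. HSPB1, a small heat shock protein, differed by -6.43, GADD45A, a growth arrest protein, by -3.11 and HSPB9 by -1.44. ASNS, asparagine synthetase and a target of ATF4, differed by 1.59, and the chaperones HSPH1 and HSP90AA1 by 1.53 and 1.50. HSPH1 had 1 of 2 probe sets called. HSPA8 and HSPA5 were not called, at 0.23 and -0.97, and HSPA5 was 0.0072 after spike-in scaling and -1.09, called in CEF, with 75th percentile centring. It was also called without PGC replicate 1 (-1.02) and without CEF replicate 3 (-1.01). Over the 180 distinct genes of these lists, 75 were called higher in CEF, 16 in PGC and 89 were not called. The same counts over all 13009 genes were 1933, 2294 and 8782.

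**Figure D5:**
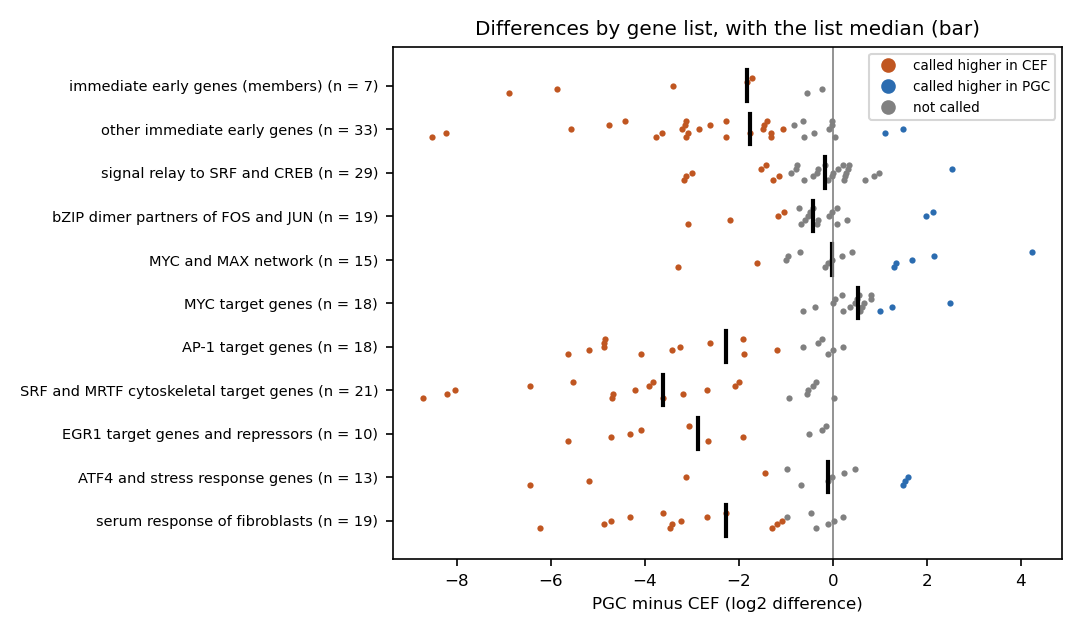
PGC minus CEF difference (x axis, log2) of every measured gene in each list (y axis, n in brackets), coloured by call, with a bar at the list median. The early genes and the target lists of AP-1, SRF and EGR1 lie mostly left of zero, and the MYC target list has a median of 0.53.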

How the data were processed

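The authors deposited log2 expression values for 38535 probe sets on 6 arrays. The base was read from the values, which run from -0.13 to 12.52. MAS5 and GCOS are named, per the submitters' processing notes, and the normalization is not given in the sources used here. Genes were named from the platform annotation: 27178 probe sets have 1 symbol, 177 several and 11180 none. Two-sided tests used limma 3.58.1 in R 4.3.3 (lmFit, eBayes with an intensity trend), without a replicate block. Benjamini-Hochberg adjustment ran over 38439 probe sets. The 96 probe sets with an AFFX control name were left out. The 57 reporter probe sets and the 689 used for the background level were kept in. The labels call the samples biological replicates. The number of arrays limits the precision. The background level was the 95th percentile of 689 probe sets without the chicken prefix, because the files name no probe as blank.

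Members and gene lists were chosen with earlier results of these data known. List symbols were matched exactly, without synonyms: 267 of 366 list entries matched. From each list the text names up to 4 called genes of largest difference in each direction and the 2 brightest not called, except 1 gene that is not reported here. That the 2 should be the brightest was settled after values had been seen. It replaced a selection by hand that had passed over genes with unstable results. No sequences were analysed here.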

Additional observations from a re-analysis of the deposited data

How the results depend on the processing

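The 5 calls in CEF were kept in all 6 fits that left out 1 array, with differences from -7.00 to -6.81 for EGR1, -6.07 to -5.64 for MYC, -3.56 to -3.19 for ATF3, -1.90 to -1.73 for JUN and -1.79 to -1.63 for SRF. FOS ran from -0.65 to -0.46 and FOSL2 from -0.40 to -0.08. Scaling to the spike-ins bioB, bioC and bioD moved the median of all genes from -0.05 to 0.93, while 75th percentile centring gave -0.17. Spike-in scaling left 3 members called in CEF (JUN -0.84 and SRF -0.73 lost the call) and put FOS at 0.43 and FOSL2 at 0.75. Probe sets called went from 9469 (5597 in PGC, 3872 in CEF) to 17324 (15563 and 1761), and the share in PGC from 59.1% to 89.8%. These spike-ins averaged 6.46 in PGC and 7.44 in CEF, and cre 11.20 and 11.33. Which scaling is right was not tested. A test against the 2-fold threshold called 5664 probe sets (3245 in PGC, 2419 in CEF), and no minimum fold called 18797 (9721 and 9076) and added FOS.

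With the mean of all probe sets of a gene SRF was -0.84 and not called, and with plain probe sets only it was 0.027. The mean of probe sets also ended the calls of NR4A2 (0.76), CREB5 (-0.93), NFE2L1 (-0.37), BACH1 (-0.20), MXD1 (-0.67), MGA (0.28), EIF4E (0.77), GNL3 (0.77) and HSPH1 (0.73), and called INSIG1 (-1.03). Centring on the 75th percentile ended the calls of DUSP6 (0.99) and GNL3 (0.88) and called HSPA5 (-1.09) and INSIG1 (-1.10), and quantile normalization ended that of GNL3 (0.97) and called INSIG1 (-1.004). The test against 2-fold did not call NR4A2, DUSP6, CREB5, NFE2L1, BACH1, MGA, EIF4E, GNL3 or HSPB9. Of the other named genes, spike-in scaling turned the sign of ID1 (0.37), ZFP36L2 (0.95), RHOA (0.96), ATF4 (0.30), XBP1 (0.44), MLX (0.88), IL8L1 (0.35), ACTG1 (0.44), ACTB (0.54), NAB1 (0.75), PPARG (0.46) and HSPA5 (0.0072), none of them called in the reported fit. It ended the calls in CEF of NFE2L1 (-0.19), BACH1 (-0.07), MXD1 (-0.64) and HSPB9 (-0.46), and added calls in PGC for MAPK14 (1.26), MYCBP (1.17), ENO1 (1.16), LDHA (1.03), CCND1 (1.20) and HSPA8 (1.20). Other sign changes were LDHA at -0.068 with 75th percentile centring, RHOA at 0.076 with quantile normalization, 0.00096 with array weights and 0.13 with the mean of probe sets, ZFP36L2 at 0.023 with array weights, ACTG1 at 0.00016 with the mean of probe sets and 0.54 with plain probe sets, and MYCBP at -0.11 and CCND1 at -0.16 with plain probe sets. Leaving out 1 array gave RHOA -0.036 to 0.032, ZFP36L2 -0.13 to 0.049 and CCND1 -0.013 to 0.46. Plain probe sets also lost the call of PTGS2 (-0.04), ARPC1B (-0.40), MGA (0.20) and GNL3 (0.02). The cause of these changes was not tested, except that the probe set alternatives change which probes are read. In all, 1147 comparisons of related genes kept direction and call, 26 reversed, 36 lost and 24 gained the call.

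Same-numbered samples did not deviate together (correlations -0.04, -0.01 and 0.01), so the numbers were not used as pairs. A replicate block called 9498 probe sets (5611 in PGC, 3887 in CEF) and the same number of members, 5. Each cell type had 3 arrays and 1 culture state, and the fit had 4 residual degrees of freedom. Values under background were read as having no order.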
